A study of Mus musculus with 6 samples.

Results

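The insulin-like growth factor (IGF) genes were followed by symbol in RNA-seq of the mouse retina 2 days after optic nerve crush (ONC). The group held 10 genes of the 35485 in the deposited tables: the ligands Igf1 and Igf2, the receptors Igf1r and Igf2r, and the binding proteins Igfbp2, Igfbp3, Igfbp4, Igfbp5, Igfbp6 and Igfbp7. All samples came from wild type C57BL/6 mice of 12 weeks. In the ONC group the nerve was crushed for 10 seconds at 2 mm behind the globe, and in the sham group it was exposed but not crushed. Each group had 3 samples, and each sample was a pool of RNA from 6 retinas of 6 mice, so the p-values below measure the spread between pools and not between animals. Because RNA came from the whole retina, the cells that made each transcript were not separated.

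IGF1 and IGF2 are secreted peptides that act through IGF1R, a receptor tyrosine kinase closely related to the insulin receptor. Ligand binding recruits IRS and SHC adaptors and activates the PI3K-AKT and MAP kinase pathways, which promote growth and survival in many neurons, retinal ganglion cells (RGCs) among them. IGF2R does not signal in this way, since it captures IGF2 at the cell surface and carries it to lysosomes, where it also delivers enzymes tagged with mannose 6-phosphate. The IGF binding proteins hold the ligands outside the cell with high affinity, and proteases that cut them release the ligand. IGFBP7 is a more distant relative that binds the IGFs weakly.

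Gene positions in the tables matched GRCm38. Igf1r was the longest gene of the family, on chr7:67952257-68233667, with 21 exons and an exon length of 11978 bases, and Igf2 lay on the same chromosome at chr7:142650768-142661035. Igf1 was at chr10:87859056-87937047 and Igf2r at chr17:12682406-12769706. Igfbp2 (chr1:72824480-72852474) and Igfbp5 (chr1:72858065-72874865) were neighbours, and Igfbp3 lay at chr11:7206086-7213923, apart from Igfbp4 at chr11:99041260-99052646. Igfbp6 was at chr15:102144186-102149512 and Igfbp7 at chr5:77349240-77408045.

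Igf1r and Igfbp3 were the members with the lowest p-values between groups. The 250 bases in front of a RefSeq start site of each are therefore shown (GRCm38.p6, 5′ to 3′ along the gene). Igf1r is on the plus strand at chr7:67952007-67952256, and Igfbp3 is on the minus strand at chr11:7213924-7214173. RefSeq extends the gene Igfbp3 to base 7215498, so the stretch shown for it lies inside the full RefSeq gene. Capitals mark matches to the motifs searched.
Igf1r: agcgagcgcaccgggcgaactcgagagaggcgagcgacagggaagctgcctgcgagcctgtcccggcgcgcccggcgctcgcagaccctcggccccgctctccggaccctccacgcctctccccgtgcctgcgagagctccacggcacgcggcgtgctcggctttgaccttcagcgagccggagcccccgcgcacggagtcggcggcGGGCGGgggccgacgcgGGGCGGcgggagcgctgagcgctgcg
Igfbp3: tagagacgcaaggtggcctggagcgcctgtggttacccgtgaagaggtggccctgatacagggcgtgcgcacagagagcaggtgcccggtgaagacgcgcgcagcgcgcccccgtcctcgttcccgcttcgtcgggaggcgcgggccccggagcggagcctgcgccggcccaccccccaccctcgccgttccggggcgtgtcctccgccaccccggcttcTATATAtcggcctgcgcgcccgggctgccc
The Igf1r sequence was 77.6% G and C with 42 CG pairs, and its capitals are 2 GC boxes (GGGCGG) that begin 43 and 26 bases before the start site. The Igfbp3 sequence was 73.2% G and C with 32 CG pairs, and its capitals are a TATATA that begins 30 bases before the start site. The median over 32851 mouse promoters was 52.4% G and C. Searched on both strands of all of them, GGGCGG was found in 32.7%, TATATA in 5.25%, TATAAA in 12.4%, the AP-1 site TGANTCA in 6.75%, the cyclic AMP response element TGACGTCA in 1.55% and the C/EBP-ATF site TGATGNAA in 3.45%. The last 4 were not found in either sequence shown. None of the motifs overlapped another in the 14 promoters of the 10 members.

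Each sham sample held 17343945 to 18349331 exon reads, and each ONC sample 20019818 to 20358008. Exons held 70.9% to 76.6% of the reads on genes in the sham group and 78.5% to 80.4% in the ONC group. ONC replicate 1 stood apart from the other ONC samples, and leaving it out raised the genes past the false discovery rate (FDR) of 0.1 from 833 to 2049. RPKM is a read density that corrects for exon length and depth. With the scaling of RPKM the median log2 fold change of all genes was 0.13, beside 0.01 in the main analysis. On this scale 6 rod genes summed to 17240 to 17830 in the sham group and 18000 to 19670 in the ONC group, without overlap. The 8 RGC markers summed to 416 to 435 RPKM in the sham group and 298 to 316 in the ONC group. In the test described below, 8 of 8 were lower at the FDR of 0.1, beside 3.72% of all genes. The 7 microglia markers summed to 9.96 to 12.7 RPKM against 18.4 to 20.7. Of these, 6 of 7 had a positive log2 fold change and 2 of 7 were higher at that FDR, beside 2.38% of all genes. The 6 lens genes summed to 31.7 RPKM in sham replicate 1 and to 5.47 and 7.35 in the other sham samples. They summed to 32.2 to 39.7 in the ONC group. All 6 lens genes had a positive log2 fold change, and 1 of 6 was higher at that FDR. For rods 3 of 6 had a positive log2 fold change in that test, the median was 0.03, and 2 of 6 were higher at that FDR. No tested gene passed among the cone, bipolar, amacrine, Müller cell, astrocyte, blood myeloid, endothelial, mural, pigment epithelium and fibroblast markers. Of these lists, 3 of 4 astrocyte, 3 of 5 blood myeloid and 3 of 5 mural markers were past the expression filter and tested. No RGC, microglia, lens or fibroblast marker was at 0 in all samples, but 4 of 5 fibroblast markers were under the expression filter.

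All 10 members were detected in every sample and passed the expression filter, a group mean of more than 0.3 RPKM in either group, as did 13670 genes. Since RPKM is a density per length, levels can be ranked between genes on this scale. In the sham group Igf1r was the most abundant member with a mean of 13.8 RPKM ± 0.614 (SD, n = 3), and 67.3% of the genes past the filter had a smaller mean RPKM over all samples. Igfbp2 (8.90 ± 1.19), Igfbp4 (7.90 ± 0.774), Igfbp7 (7.37 ± 0.675), Igfbp5 (6.63 ± 0.439) and Igf2 (6.10 ± 0.496) followed, and the sample ranges of each neighbouring pair in this order overlapped. Igf2r (3.96 ± 0.294) and Igf1 (3.30 ± 0.440) came next and overlapped with each other. Igfbp6 (1.93 ± 0.487) and Igfbp3 (0.636 ± 0.181) were lowest, each with a range below that of the member before it.

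**Figure D1:**
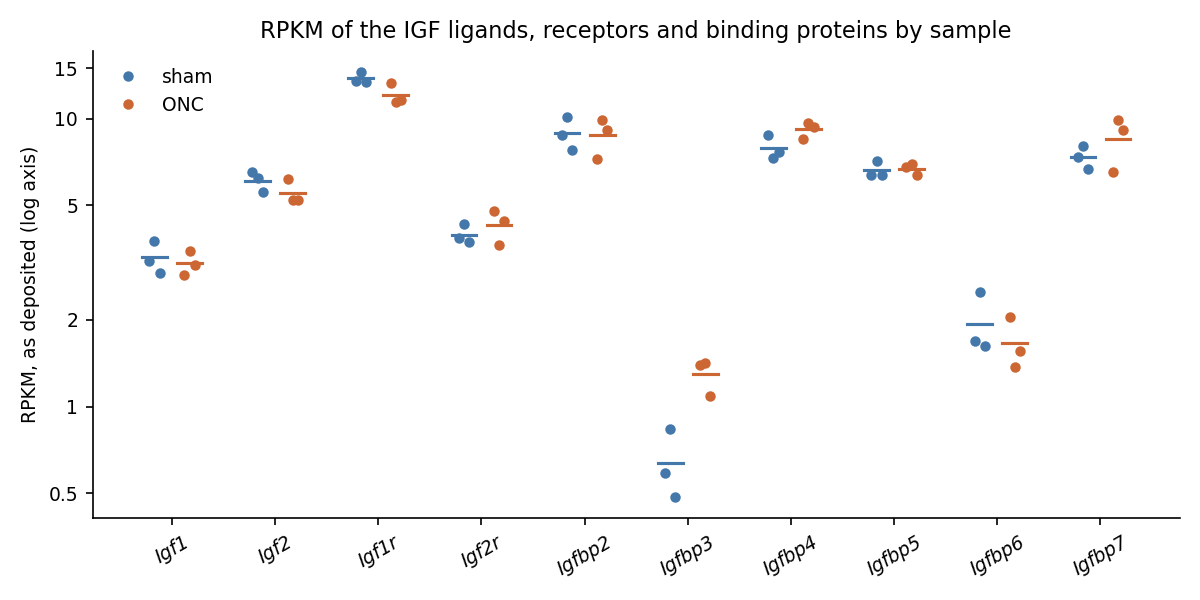
RPKM as deposited, on a log axis, for the 10 members in the 3 sham (blue) and 3 ONC (orange) samples; each point is a sample and each bar is the group mean. The ONC points lie above the sham points for Igfbp3 and below them for Igf1r, and the points of the groups overlap for the other 8 members.

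The test for a difference between the groups was the quasi-likelihood test of edgeR on exon reads, with trimmed mean of M-values (TMM) scaling and Benjamini-Hochberg adjustment over the 13670 genes. Igf1r alone among the 10 members passed an FDR of 0.1, and it was lower after ONC. Of all genes tested, 6.09% passed this threshold, with 3.72% lower and 2.38% higher after ONC. A differentially expressed gene (DEG) also had to change more than 1.5-fold, and 0 of 10 members were DEGs, against 1.66% of all genes (0.827% higher and 0.834% lower). At an unadjusted p under 0.05 there were 3 members (Igf1r, Igfbp3 and Igf2), beside 16.7% of all genes. In read counts scaled to library size with TMM (CPM), the ONC samples did not overlap the sham samples for the same 3 genes, 1 above and 2 below, while 11.0% of all genes lay above and 10.8% below. The median log2 fold change was -0.13 over the 10 members and 0.01 over all genes.

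**Figure D2:**
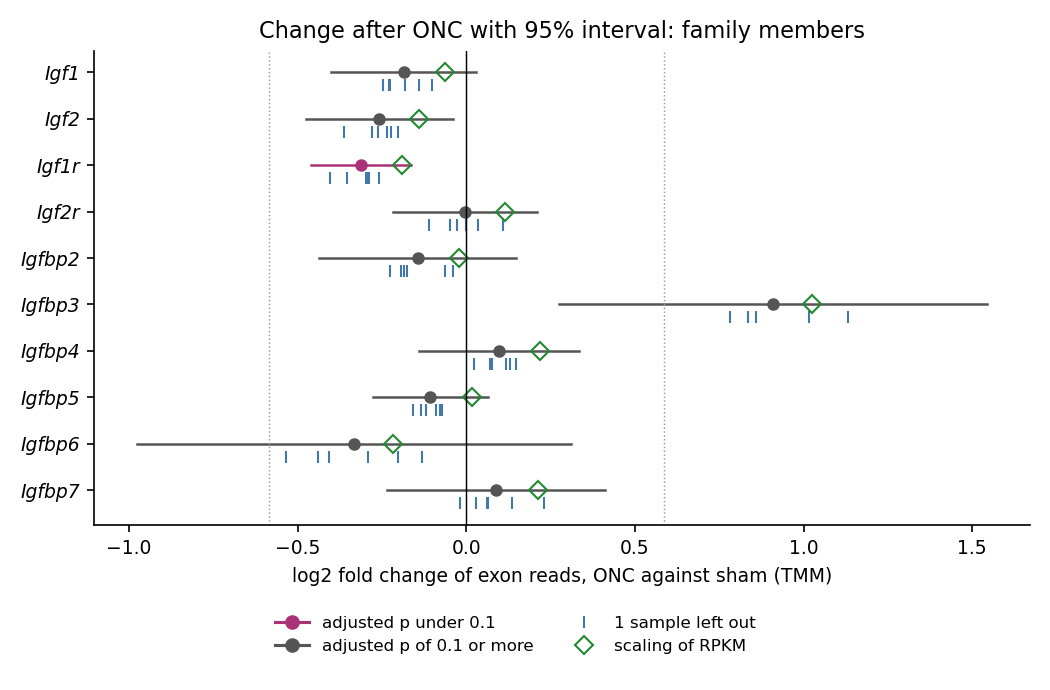
Log2 fold change of exon reads, ONC against sham, for the 10 members (dots) with 95% intervals; purple marks an adjusted p under 0.1, dotted lines mark a 1.5-fold change, ticks are fits that leave out 1 sample, and diamonds use the scaling of RPKM. Only the dot of Igf1r is purple and only the dot of Igfbp3 is past a dotted line, and the diamonds of all members lie to the right of their dots, which puts Igf2r and Igfbp5 on the other side of 0.

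Igf1r, the signaling receptor, fell after ONC by 0.31 on the log2 scale. Its exon reads were 3729, 4172 and 3934 in sham replicates 1 to 3 and 4031, 3402 and 3611 in ONC replicates 1 to 3. Scaled to depth, these were 213.6, 229.4 and 231.7 CPM in the sham group and 203.5, 166.1 and 173.7 CPM in the ONC group. All 3 ONC values were below all 3 sham values, and ONC replicate 1 was the closest of them to the sham group. The decrease of 0.31 had a standard error (SE) of 0.07 (95% interval -0.46 to -0.16, adjusted p = 0.0136), which is a level 0.805 times that of sham. In bulk tissue, fewer cells of a type and less RNA per cell cannot be told apart, and the RGC markers fell in the same samples as given above. Their part in the value of Igf1r was not tested.

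The call for Igf1r did not hold in every fit. Without sham replicate 2 the log2 fold change was -0.30 (adjusted p = 0.110) and without sham replicate 3 it was -0.29 (adjusted p = 0.104). With the scaling of RPKM, which divides by all reads on genes, those on introns included, it was -0.19 (adjusted p = 0.115). With that scaling the median of all genes moved from 0.01 to 0.13. Igf1r kept a negative sign in 19 of 19 alternatives and passed the FDR in 14 of them.

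Igf2r, the scavenger receptor, was measured at nearly equal levels in both groups. Its exon reads were 789, 918 and 817 in the sham samples and 1083, 812 and 1020 in the ONC samples. In CPM, ONC replicate 2 was the lowest of the 6 samples (39.6) and ONC replicate 1 the highest (54.7), so the sham values of 45.2 to 50.5 lay inside the ONC range. The log2 fold change was -0.0044 with an SE of 0.10 (95% interval -0.22 to 0.21, adjusted p = 0.987), and its sign changed with the scaling. The ratio of Igf1r to Insr, the insulin receptor, in RPKM was 1.15, 1.30 and 1.26 in the sham samples and 1.04, 0.990 and 1.08 in the ONC samples, without overlap. Insr itself had a log2 fold change of -0.06 (SE 0.07, adjusted p = 0.746), and the difference between the 2 genes was not tested.

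Both ligands had negative log2 fold changes that did not pass the adjusted threshold. Igf1 had 578, 707 and 556 exon reads in the sham samples and 568, 678 and 630 in the ONC samples. Its CPM values of 32.7 to 38.9 and 28.7 to 33.1 overlapped, and the log2 fold change was -0.19 (SE 0.10, 95% interval -0.40 to 0.03, adjusted p = 0.379).

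Igf2 had 634, 632 and 575 exon reads in the sham samples and 661, 549 and 574 in the ONC samples. In CPM these were 36.3, 34.8 and 33.9 against 33.4, 26.8 and 27.6, so that ONC replicate 1 lay just below the lowest sham sample and the other two lay well below it. The log2 fold change was -0.26 (SE 0.10, 95% interval -0.48 to -0.04, adjusted p = 0.208). Without ONC replicate 1 it was -0.36 (adjusted p = 0.0206). On the RPKM scale the groups overlapped, with 5.55 to 6.51 in the sham group and 5.21 to 6.17 in the ONC group. The reads of Igf2 could include some from Igf2as, which overlaps it, since the library kit does not keep the strand. No exon reads were listed for Igf2as. Over its whole gene it had 14, 8 and 7 reads in the sham samples and 22, 6 and 3 in the ONC samples.

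Igfbp3, the main IGF carrier of serum, had the largest difference of the family. Its exon reads were 33, 49 and 29 in the sham samples and 86, 86 and 69 in the ONC samples. In CPM these were 1.89, 2.70 and 1.71 against 4.34, 4.20 and 3.32. All 3 ONC samples were above all 3 sham samples, and the lowest ONC value was above the highest sham value by less than the sham samples differed among themselves. The log2 fold change was 0.91 (SE 0.30, 95% interval 0.27 to 1.54), a 1.88-fold difference, which ranked 244 among the 13670 genes in order of increase. With an adjusted p of 0.112 in edgeR's test, Igfbp3 missed the FDR of 0.1.

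The counts of Igfbp3 were low, and counting error alone allowed 19.4 to 41.7 reads for the 29 in sham replicate 3 and 53.7 to 87.3 for the 69 in ONC replicate 3 (exact Poisson 95% intervals). These intervals cover counting error only. Igfbp3 passed the FDR in 6 of 19 alternatives and was a DEG in 5 of them, with its lowest adjusted p of 0.0480 under the scaling of RPKM (log2 fold change 1.03). With 1 sample left out the log2 fold change was 0.78 to 1.13 and the adjusted p was 0.112 to 0.326. The RPKM sums of the microglia and lens markers given above were also higher in the ONC samples, although 2 of 7 and 1 of 6 of these genes passed the FDR and the lens sum of sham replicate 1 was close to that of ONC replicate 2. The fibroblast markers summed to 0.477 to 0.867 RPKM in the sham group and 0.993 to 1.003 in the ONC group. Sums of the rod markers, given above, and of the Müller cell markers were higher after ONC without overlap as well. The Müller cell sums were 1085 to 1207 RPKM in the sham group and 1217 to 1230 in the ONC group. In edgeR's test 3 Müller cell genes had a positive and 3 a negative log2 fold change, and 0 passed the FDR. Endothelial markers overlapped, with 35.1 to 40.8 against 35.0 to 43.5 RPKM. Their part in the value of Igfbp3 was not tested.

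**Figure D3:**
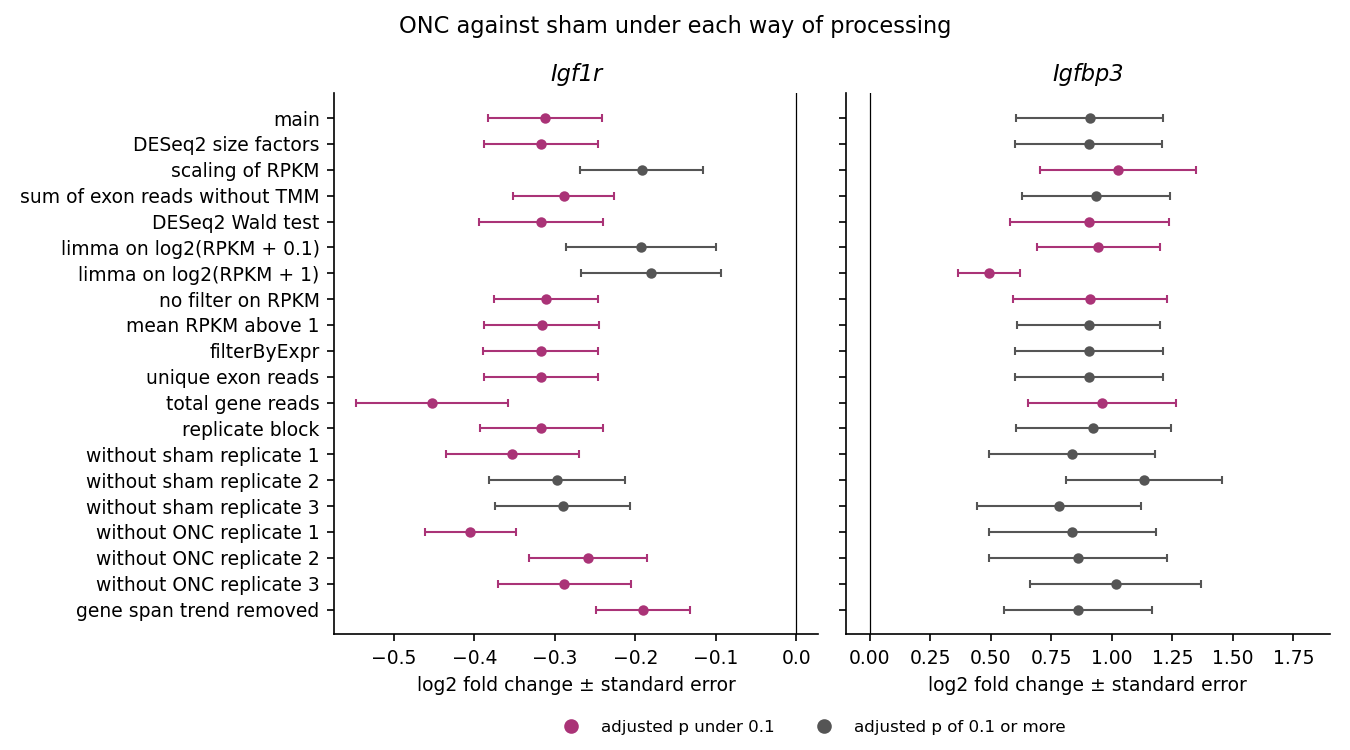
Log2 fold change of Igf1r (left) and Igfbp3 (right) with 1 SE in each direction, ONC against sham, under the main analysis and 19 alternatives; purple marks an adjusted p under 0.1. Every value is negative for Igf1r, from -0.45 to -0.18, and positive for Igfbp3, from 0.49 to 1.13, while the calls differ between rows.

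For the other 5 binding proteins the adjusted p was 0.541 to 0.824, and the groups overlapped in CPM. Igfbp2, an abundant carrier in the central nervous system, had 269, 323 and 253 exon reads in the sham samples and 243, 328 and 316 in the ONC samples, with a log2 fold change of -0.14 (SE 0.14, 95% interval -0.44 to 0.15). Igfbp5, its neighbour on the chromosome, which binds to the extracellular matrix, had 859, 1001 and 913 against 1004, 1012 and 970 exon reads and a log2 fold change of -0.11 (SE 0.08, 95% interval -0.28 to 0.06). Its values ran from 46.7 to 55.1 CPM over both groups, and the lowest and the highest were in different groups.

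Igfbp4, a target of the protease PAPPA, had 417, 361 and 387 exon reads in the sham samples and 447, 499 and 502 in the ONC samples. All raw counts were higher after ONC, but after scaling the CPM of 19.9 to 23.9 and 22.6 to 24.4 overlapped, with a log2 fold change of 0.10 (SE 0.11, 95% interval -0.14 to 0.33). Igfbp7 had 205, 234 and 199 against 201, 300 and 287 exon reads. In CPM, its ONC replicate 1 was the lowest of the 6 samples (10.2) and the other two ONC samples were the highest (14.7 and 13.8), and the log2 fold change was 0.09 (SE 0.15, 95% interval -0.24 to 0.41). Igfbp6, which prefers IGF2 over IGF1, had 50, 77 and 51 against 67, 44 and 52 exon reads and the widest interval of the family (log2 fold change -0.33, SE 0.31, 95% interval -0.98 to 0.31). At this depth the interval of Igfbp6 includes a 1.5-fold decrease.

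Summed over the 6 binding proteins, the level was 33.6, 35.9 and 30.6 RPKM in the sham samples and 32.5, 39.3 and 36.7 in the ONC samples. The 2 ligands summed to 9.73, 10.0 and 8.45 RPKM against 9.04, 8.69 and 8.33. The ratio of binding protein to ligand transcripts was 3.45, 3.59 and 3.62 in the sham group and 3.60, 4.52 and 4.40 in the ONC group, and ONC replicate 1 fell within the sham range. Igfbp3 made up 1.58% to 2.33% of the binding protein sum in the sham samples and 2.97% to 4.27% in the ONC samples, without overlap. It remained the least abundant of the 6 in all samples except ONC replicate 2, where Igfbp6 made up 3.49% and Igfbp3 3.60%. Igfbp2, Igfbp4 and Igfbp7 each made up 20.1% to 28.2% in every sample. These sums rest on the same reads as the values above and were not tested.

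Reads on introns come mostly from unspliced transcripts and were counted as the reads on the whole gene minus those on exons. Of the 10 members, 5 had enough intron reads to be tested, and 2 of these, both receptors, were lower after ONC at an adjusted p under 0.1, beside 2.70% of the 13391 genes tested in either direction and 2.24% lower. Igf1r had 807, 1166 and 1858 intron reads in the sham samples and 554, 487 and 786 in the ONC samples, which did not overlap. Its intron log2 fold change was -1.02 (SE 0.22, 95% interval -1.50 to -0.55, adjusted p = 0.0654 in edgeR's test). Introns held 24.4% of its reads in the sham group and 14.2% in the ONC group. Sham replicate 3, which had the lowest share of reads on exons over all genes, had the highest of these counts, and without it the log2 fold change was -0.71 (adjusted p = 0.0872). Without sham replicate 2, ONC replicate 2 or ONC replicate 3 the adjusted p was 0.121, 0.324 and 0.181. Exon-exon reads of Igf1r, which cross a splice junction, were 900, 1048 and 968 against 1034, 804 and 776 as raw counts and overlapped.

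Igf2r had 196, 221 and 268 intron reads in the sham samples and 119, 96 and 141 in the ONC samples, again without overlap (log2 fold change -0.90, SE 0.21, adjusted p = 0.0665). Of reads that map to 1 place only, however, its introns had 54, 79 and 49 against 35, 47 and 59, and these overlapped (log2 fold change -0.35, adjusted p = 0.619). The call was also lost without sham replicate 2, sham replicate 3, ONC replicate 2 or ONC replicate 3 (adjusted p = 0.121, 0.152, 0.324 and 0.195). Airn, a long noncoding RNA on the opposite strand, overlaps Igf2r and had 847, 781 and 885 reads over the whole gene in the sham samples and 695, 879 and 916 in the ONC samples. Without strand, reads of the overlapping part cannot be assigned to either gene. The intron values of Igf1 (-0.16), Igfbp4 (-0.09) and Igfbp7 (-0.66, SE 0.40, adjusted p = 0.423) did not pass.

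Intron reads differed with the length of the gene over the whole transcriptome. The median intron log2 fold change was 0.34 in the eighth of genes with the shortest span and -0.46 in the eighth with the longest, which begins at 122535 bases, and for exon reads the same medians were 0.05 and -0.10. Igf1r spans 281411 bases and belongs to the longest eighth, and Igf2r spans 87301 bases and belongs to the eighth with an intron median of -0.22. With a smooth trend of span removed from each sample, an alternative chosen after seeing the data, the intron value of Igf1r was -0.52 (adjusted p = 0.105) and that of Igf2r was -0.67 (adjusted p = 0.127). The exon value of Igf1r was then -0.19 (SE 0.06, adjusted p = 0.0889).

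**Figure D4:**
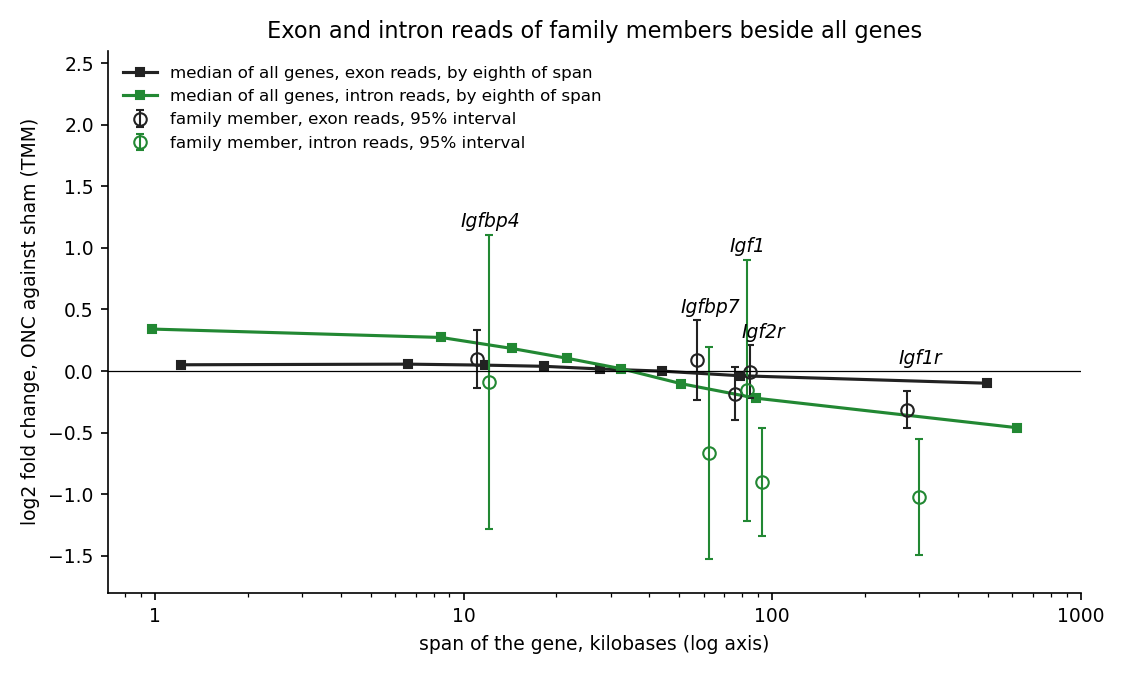
Log2 fold change (ONC against sham) by gene span in kilobases on a log axis; lines with squares are medians of all genes in eighths of span for exon reads (black) and intron reads (green), and circles with 95% intervals are the 5 members tested on both, drawn slightly to the left (exon) and right (intron) of their span. The green line drops from 0.34 to -0.46, the black line from 0.05 to -0.10, and the green circles of Igf1r and Igf2r lie below the green line with intervals that end below it, while the intervals of Igf1, Igfbp4 and Igfbp7 reach it.

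Of 45 other genes of the pathway reported here, 34 passed the expression filter, and edgeR's test called 0 at an adjusted p under 0.1, while DESeq2 and limma on log2(RPKM + 0.1) each called 1. At an unadjusted p under 0.05 there were 3 of 34 in edgeR's test, beside 16.7% of all genes. The log2 fold changes were positive for 17 and negative for 17, with a median of -0.01, beside 0.01 over all genes. Without ONC replicate 1, edgeR's test called 4, in a fit that called 2049 of all 13705 genes tested. The genes under the filter were Ins1, Ins2, Igfbp1, Igfals, Igfbpl1, Esm1, Htra4, Nov, Wisp2, Irs4 and Igf2bp1. Ins1 had 0 exon reads in all samples, for which the exact Poisson 95% interval reaches 3.69 per sample. Ins2, its close relative, had 3 exon reads in ONC replicate 2 and 0 in the other samples. Of these, 100% mapped to 1 place only.

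The most abundant gene of each list did not pass. In insulin signaling this was Insr, described above, at 11.5 RPKM over all samples. Among regulators of IGF availability and among genes with a related domain it was Htra1, a secreted serine protease, at 24.1 RPKM (log2 fold change 0.13, SE 0.08, adjusted p = 0.456). Among the adaptors it was Grb2, which links receptors to RAS, at 21.6 RPKM (-0.04, SE 0.07, adjusted p = 0.838). Akt1 was highest in the PI3K-AKT-FOXO list at 28.7 RPKM (0.05, SE 0.07, adjusted p = 0.775), and Igf2bp2, which binds Igf2 mRNA, was highest of its list at 1.63 RPKM (0.09, SE 0.17, adjusted p = 0.833).

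The 3 genes with an unadjusted p under 0.05 were Foxo4, Foxo3 and Irs1, named here after their values were seen. Foxo4, a transcription factor that AKT keeps out of the nucleus, had the lowest adjusted p of these at 0.101, with 17.4, 16.8 and 19.7 CPM in the sham samples and 22.1, 21.4 and 26.8 in the ONC samples (log2 fold change 0.38, SE 0.12). All ONC values were above the sham values. Irs1, the adaptor of the IGF1 and insulin receptors, had a log2 fold change of -0.29 (SE 0.11, adjusted p = 0.188) and Foxo3, a related transcription factor, one of -0.26 (SE 0.11, adjusted p = 0.240). Groups did not overlap in CPM for 5 of the 34 genes, 3 above (Foxo4, Pik3cb and Stc2) and 2 below (Irs1 and Shc1), beside 21.8% of all genes. Stc2, a secreted inhibitor of PAPPA, had 37, 26 and 27 exon reads in the sham samples and 43, 73 and 55 in the ONC samples (log2 fold change 0.71, SE 0.35, adjusted p = 0.326).

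**Figure D5:**
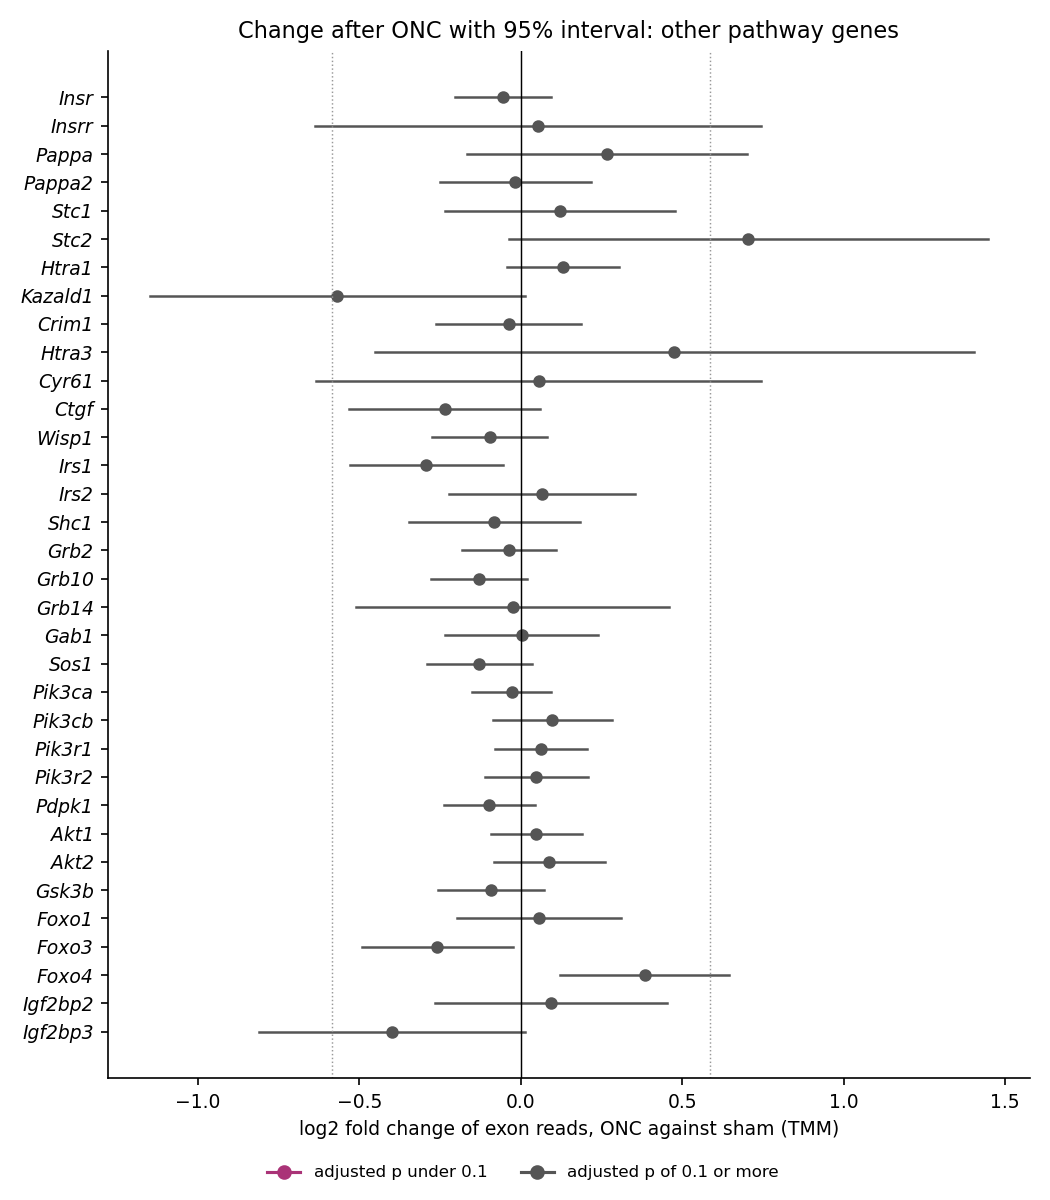
Log2 fold change of exon reads, ONC against sham, with 95% intervals for the 34 other pathway genes past the expression filter; purple marks an adjusted p under 0.1 and dotted lines mark a 1.5-fold change. No dot is purple, Stc2 is the single dot past a dotted line at 0.71, and the dots of the other genes lie between the lines.

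The genes whose profiles over the 6 samples were nearest to those of Igf1r and Igfbp3 were found among 12116 genes with at least 50 exon reads on average, by the root-mean-square difference of log2 CPM centred on each gene's mean. For Igf1r, whose own deviation was 0.185, these were Lphn1, an adhesion receptor of synapses, at a difference of 0.0199, Chd3, a chromatin remodeler, at 0.0209 and Kcnab2, a potassium channel subunit, at 0.0255. For Igfbp3, whose own deviation was 0.522, they were Aldh1l2, a mitochondrial folate enzyme, at 0.136, Ifi30, a lysosomal reductase, at 0.153 and Mettl18, a methyltransferase, at 0.180. Of these 6 genes, Lphn1 (-0.30), Chd3 (-0.27) and Kcnab2 (-0.28) fell and Aldh1l2 (0.72, adjusted p = 0.0571) rose, while Ifi30 (0.84, adjusted p = 0.111) and Mettl18 (0.63, adjusted p = 0.120) missed the FDR of 0.1 as Igfbp3 did. The genes were selected for this likeness over the same samples.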

How the data were processed

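RNA libraries were sequenced by the authors, mapped with CLC Genomics Workbench and deposited as 1 table per sample. The deposited counts are reads on exons and on whole genes, unnormalized. The deposited RPKM values are exon reads divided by exon length and by all reads on genes, introns included, as computed by the authors. The build named is mm9, but 73.3% of 29908 genes share a start or end with RefSeq GRCm38.p6. Columns with group means were not used.

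Total exon reads of genes whose mean exceeded 0.3 RPKM in either group were tested with edgeR 4.0.16 (TMM, glmQLFit, glmQLFTest, condition only) in R 4.3.3, since the unit is counts, in place of the authors' test on RPKM. An FDR under 0.1 and a fold change above 1.5 defined a DEG. The SE is the log2 fold change divided by the square root of F. Intron reads were tested on the genes kept by filterByExpr. The fits were run on simulated counts with the same dispersion for every gene, and only the edgeR fit had to meet set limits. The simulated counts had no sample that stood apart and no trend with gene span. They therefore do not show how the fits behave where these data have both. Figures and tables used Python 3.11.15. Alternatives included DESeq2 1.42.0 and limma 3.58.1 on log2 RPKM (pseudocount 0.1 or 1). The common biological coefficient of variation was 9.17%, which with the depth sets the precision.

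Named were all members, in each pathway list every gene past the FDR and the one of highest RPKM, and the 3 genes nearest to each of the 2 members of lowest p. Of the pathway lists, 2 genes are not reported here, and the counts cover the other genes only. The members and all lists, tests and naming rules were chosen with earlier results of these data known.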

Additional observations from a re-analysis of the deposited data

How the results depend on the processing

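Scaling, filter, tool and samples were varied 1 at a time, with exceptions. The DESeq2 test and the limma fits on log2 RPKM changed both the tool and the scaling. The expression filter on exon reads was computed again when a sample was left out. The DEG count of 227 became 350 with the scaling of RPKM, 349 with total gene reads and 51 with edgeR's glmTreat, and it was 154 to 358 with 1 sample left out. Members past the FDR (1, Igf1r) were 2 with DESeq2, with no filter on RPKM and with total gene reads, Igfbp3 being added, and 0 to 2 with 1 sample left out. With the scaling of RPKM and in both limma fits the count stayed at 1, but the member was Igfbp3 and not Igf1r. They were 0 without sham replicate 2 or sham replicate 3, and 2 without ONC replicate 1, Igf2 being added. The fit without ONC replicate 1 called 2049 of 13705 genes, beside 833 of 13670 in the main analysis. Members that were DEGs (0) were 1 (Igfbp3) with the scaling of RPKM, DESeq2, limma on log2(RPKM + 0.1), no filter on RPKM and total gene reads. With limma on log2(RPKM + 0.1) and log2(RPKM + 1), Igf1r had log2 fold changes of -0.19 and -0.18 (adjusted p = 0.228 in both). Pathway genes past the FDR (0) were 1 with the scaling of RPKM, without TMM, with DESeq2, in both limma fits, with no filter on RPKM and with unique exon reads, 3 with total gene reads and 0 to 4 with 1 sample left out, the 4 being without ONC replicate 1. Members with fewer intron reads (2) were 1 without TMM and 1 with unique reads, 0 with the span trend removed and 0 to 2 with 1 sample left out.

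Several small log2 fold changes changed sign. Igf2r was 0.114 with the scaling of RPKM, 0.0187 without TMM, 0.105 and 0.0875 with limma on log2(RPKM + 0.1) and log2(RPKM + 1), 0.044 with the span trend removed and -0.112 to 0.109 with 1 sample left out (0.0352 without sham replicate 2, 0.109 without ONC replicate 2). Igfbp5 was 0.0156 with the scaling of RPKM and 0.0166 and 0.0146 in the limma fits. With 1 sample left out, Igfbp7 was -0.0199 (without ONC replicate 2) to 0.231. Among intron values, Igf1 was 0.0592 without TMM, 0.0809 with the span trend removed and -0.498 to 0.510 with 1 sample left out (positive without sham replicate 3 or ONC replicate 3), and Igfbp4 was 0.0778 without TMM, 0.0376 with the replicate block and -0.338 to 0.520 with 1 sample left out (positive without sham replicate 2). The causes were not tested.

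The replicate numbers shared by the groups were not used as pairs in the main analysis. The correlations of same-numbered deviations were -0.07, -0.02 and 0.00. With 3 samples per group these values cannot show whether same-numbered pools were handled together. With the replicate block, Igf1r was -0.32 (adjusted p = 0.0204), Igfbp3 was 0.92 (adjusted p = 0.135) and the pathway genes past the FDR were 0.

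Depth limits the members of few reads most, with 29 to 86 exon reads for Igfbp3 and 44 to 77 for Igfbp6, and 3 pools per group limit all of them.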
